A study of Homo sapiens with 6 samples.

Results

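The 10 genes described here encode the enzymes and the chaperone that hydroxylate, fold and crosslink collagen: the prolyl 4-hydroxylase alpha subunits P4HA1, P4HA2 and P4HA3, the lysyl hydroxylases PLOD1, PLOD2 and PLOD3, the collagen chaperone SERPINH1, and the lysyl oxidases LOX, LOXL1 and LOXL2. They were chosen by name, with earlier results of these data known, from 58336 genes in the count tables. All 10 passed the filter on low counts that left 15830 genes for testing. Their mRNAs were measured by RNA sequencing in 12Z, an immortalised line of human endometriotic epithelial cells, 72 h after transfection with 50 nM siRNA. The siBRG1 group (3 libraries) received an siRNA against SMARCA4, which encodes the SWI/SNF chromatin remodelling ATPase BRG1, and the control group (3 libraries) a non-targeting siRNA. Both groups were grown in 10% serum, given new medium at 24 h and moved to 0.5% serum at 48 h. The labels mark all 3 control libraries, and none of the siBRG1 libraries, as analysed again from an earlier deposit, so for every gene below a batch and the siRNA cannot be told apart. The labels do not say whether the 3 libraries of a group came from separate cultures, so the spread behind the p-values may be technical only.

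Collagen chains are modified inside the endoplasmic reticulum before they leave the cell. Prolyl 4-hydroxylases, tetramers of alpha subunits with the protein disulphide isomerase P4HB, make the 4-hydroxyproline that keeps the triple helix stable at body temperature. Lysyl hydroxylases make hydroxylysine, which carries sugars and sets which crosslinks can form, and the chaperone HSP47, the product of SERPINH1, binds the folded triple helix. Outside the cell, lysyl oxidases are copper enzymes that oxidise lysine and hydroxylysine so that chains of neighbouring molecules, and elastin, become covalently crosslinked. Both hydroxylase families need iron, 2-oxoglutarate, oxygen and ascorbate.

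Gene counts came to between 12391161 and 13369692 per siBRG1 library and between 40228678 and 49720320 per control library. Levels are given as CPM, counts scaled by the TMM-normalised library total, and log2FC is the log2 fold change of siBRG1 over control, with its standard error (SE). Adjusted p-values are from edgeR's quasi-likelihood test over all 15830 genes, and a gene was called at an adjusted p under 0.05. SMARCA4 itself averaged 63.3 ± 14.4 CPM in siBRG1 and 258 ± 11.8 CPM in control (SD, n = 3 each; log2FC −2.03). Of the epithelial markers, the keratins were present in both groups, with KRT8 at 1655 ± 46.3 CPM in siBRG1 and 1556 ± 12.8 CPM in control and KRT7 at 36.9 ± 4.50 CPM in siBRG1 and 196 ± 9.10 CPM in control. CDH1, E-cadherin, was low at 5.87 ± 1.35 CPM in siBRG1 and 3.05 ± 0.553 CPM in control, and EPCAM was at 1.61 ± 0.264 CPM in siBRG1 and 0.251 ± 0.0889 CPM in control. GC content moved with the comparison over all genes. Median log2FCs ran from −0.17 in the 622 genes nearest in GC to the AT-rich PLOD2 to 0.30 in the 365 nearest to the GC-rich LOXL1, where nearest means within 2 percentage points of GC.

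All 10 genes were called, 7 of them higher and 3 lower in siBRG1. Calls were common in this comparison: 72.6% of all genes tested were called, 36.1% higher and 36.5% lower, so a count of calls says little about these genes, and the sizes below carry the description. The 3 prolyl 4-hydroxylase alpha subunits, PLOD1 and LOXL1 rose by 1.49- to 3.01-fold, LOX fell to 0.677 of its control level, and PLOD2, PLOD3, SERPINH1 and LOXL2 changed by 1.21-fold at most. P4HA3 and LOXL1 alone reached 2-fold with a call, as did 21.6% of all genes tested. In 9 of the 10 genes the 3 siBRG1 libraries did not overlap the 3 control libraries, against 74.3% of all genes tested. In bulk samples, fewer cells of a type and less RNA per cell cannot be told apart. The median log2FC was 0.43 over the 10 genes and −0.01 over all genes tested. Neither median is corrected for GC. Genes of like GC had a median log2FC of 0.20 for PLOD1, 0.26 for PLOD3 and 0.30 for LOXL1, but −0.15 for P4HA1, −0.16 for LOX and −0.17 for PLOD2.

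**Figure D1:**
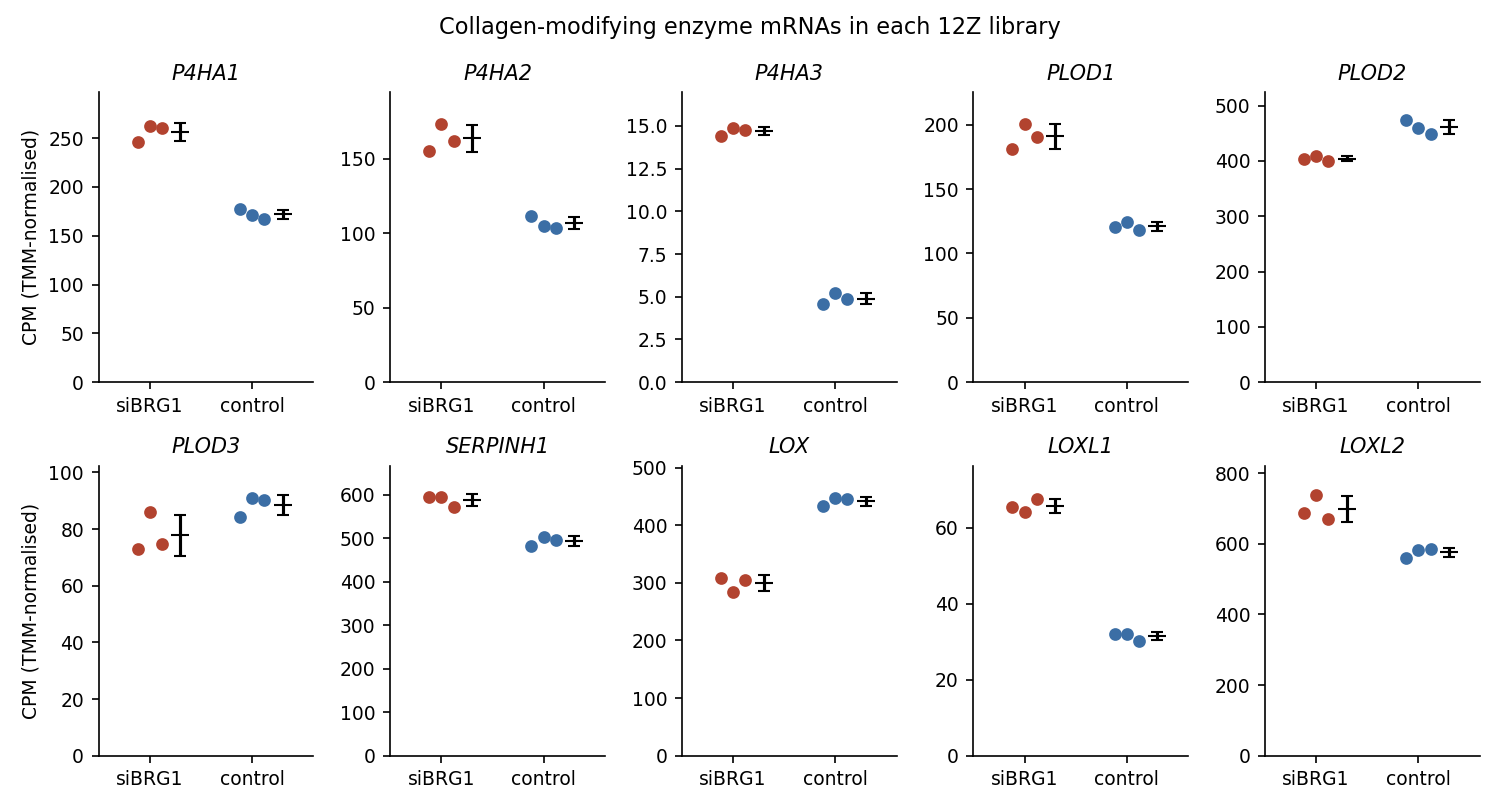
CPM (vertical axes, from 0) of the 10 genes in each library, siBRG1 in red on the left and control in blue on the right of each panel, with the mean and SD of 3 libraries in black beside the points. P4HA3 and LOXL1 show the widest separation upward and LOX downward, and only PLOD3 has libraries of the groups that overlap.

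The prolyl 4-hydroxylase alpha subunits, which hold the catalytic site, all rose. P4HA1 (ENSG00000122884.12, chromosome 10, 73007217 to 73096974 on GRCh38, minus strand), the main form in most cells, had 246, 263 and 260 CPM in the siBRG1 libraries and 177, 172 and 168 CPM in the control libraries. Every siBRG1 library was above every control library, and the log2FC was 0.57 (SE 0.0395, adjusted p = 1.81e-13). P4HA2 (chromosome 5, 132191838 to 132295315, minus strand), an isoenzyme subunit found in cartilage and bone cells among others, had 156, 174 and 162 CPM in siBRG1 and 112, 105 and 104 CPM in control. Its groups also did not overlap, and its log2FC of 0.61 (SE 0.0457, adjusted p = 1.03e-12) was within 1 SE of that of P4HA1.

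P4HA3 (chromosome 11, 74235801 to 74311657, minus strand), the least abundant of the alpha subunits, had 14.4, 14.9 and 14.7 CPM in siBRG1 and 4.59, 5.20 and 4.87 CPM in control. It rose most of the 10 genes (log2FC 1.59, SE 0.115, adjusted p = 6.16e-13), on 576 counts in siBRG1 and 623 in control, libraries of a group summed. PPME1 and P4HA3-AS1 overlap it on the other strand. Reads on that other strand made up 41.2% of the stranded counts at P4HA3 in siBRG1 and 83.4% in control, while at P4HA1 they made up 0.298% in siBRG1 and 0.294% in control. With unstranded counts the log2FC of P4HA3 was 1.37 and still called, but that count left out most of these other-strand reads. They came to 404 in siBRG1 and 3127 in control. Yet the mean share of P4HA3 among the alpha subunits in control was 2.30% with unstranded counts and 1.76% with sense counts. Whether the other-strand reads bear on the rise was not tested.

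The promoter of P4HA1 is shown because hypoxia-inducible factors are known to act on several genes of this set through the core ACGTG. The sequence is RefSeq's 250 bases before the gene start (chr10:73096867-73097116, minus strand, GRCh38.p14), with ACGTG on either strand in capitals. RefSeq's start is that of its own transcript and can differ from the end of the GENCODE gene span given above, so that a window can lie inside that span.
P4HA1: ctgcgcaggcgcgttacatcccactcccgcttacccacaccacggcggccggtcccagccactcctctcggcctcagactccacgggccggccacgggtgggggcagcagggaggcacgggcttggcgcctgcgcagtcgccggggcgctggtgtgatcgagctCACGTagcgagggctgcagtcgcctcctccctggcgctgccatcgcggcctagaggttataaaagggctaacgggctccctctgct
It held 1 match, which starts 86 bases before the RefSeq start. The window reaches into the GENCODE span of P4HA1, and the match lies inside that span. Of 35116 RefSeq windows of this length, 18.5% held at least 1.

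The lysyl hydroxylases went different ways. PLOD1 (ENSG00000083444.16, chromosome 1, 11934205 to 11975538, plus strand), which hydroxylates lysines of the helix and is mutated in the kyphoscoliotic form of Ehlers-Danlos syndrome, had 181, 201 and 191 CPM in siBRG1 and 121, 125 and 118 CPM in control. The groups lay well apart (log2FC 0.66, SE 0.0432, adjusted p = 6.62e-14). PLOD2 (chromosome 3, 146069440 to 146163653, minus strand), which hydroxylates the telopeptide lysines that give hydroxylysine-derived crosslinks, had 403, 408 and 400 CPM in siBRG1 and 473, 460 and 448 CPM in control.

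PLOD2 was thus lower in every siBRG1 library, but by little (log2FC −0.19, SE 0.0364, adjusted p = 3.83e-05). Genes of like GC had a median close to it, −0.17, and after each library's GC and length trends were taken out it missed the threshold (log2FC 0.02, adjusted p = 0.564). PLOD3 (chromosome 7, 101205977 to 101218420, minus strand), which also transfers glucose to hydroxylysine-bound galactose, had 72.8, 86.0 and 74.6 CPM in siBRG1 and 84.3, 90.8 and 90.2 CPM in control. One siBRG1 library lay within the control range, and the log2FC was −0.19 (SE 0.0551, adjusted p = 0.00387). Genes of like GC had a median of 0.26, and after that correction PLOD3 had a log2FC of −0.41 (adjusted p = 8.15e-08).

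The promoter of PLOD2 (chr3:146161185-146161434, minus strand, GRCh38.p14) is shown as that of a gene with the same core and no rise.
PLOD2: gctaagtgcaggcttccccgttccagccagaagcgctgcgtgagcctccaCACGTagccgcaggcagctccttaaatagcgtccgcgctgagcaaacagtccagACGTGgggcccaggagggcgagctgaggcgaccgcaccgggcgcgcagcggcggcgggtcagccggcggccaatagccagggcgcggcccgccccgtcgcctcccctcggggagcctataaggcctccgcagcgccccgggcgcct
It lies inside the GENCODE span of PLOD2, before the start of a RefSeq transcript. It held 2 matches, 200 and 146 bases before that start, and 7.52% of all windows held at least 2. The windows of P4HA2, PLOD1 and PLOD3 held none, and 1 of the 2 windows of SERPINH1 held 1 match, 184 bases before its start.

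SERPINH1 (ENSG00000149257.13, chromosome 11, 75562056 to 75572783, plus strand), whose product HSP47 is a chaperone specific to procollagen, was among the more abundant of the 10 mRNAs. It had 596, 595 and 572 CPM in siBRG1 and 482, 503 and 496 CPM in control. The groups did not overlap, and the rise was small (log2FC 0.25, SE 0.0365, adjusted p = 6.19e-07). Genes of like GC had a median of 0.16, and after correction for GC and length it was 0.11 (adjusted p = 0.00284).

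Among the lysyl oxidases the most abundant pair moved apart. LOX (ENSG00000113083.13, chromosome 5, 122063195 to 122078360, minus strand), the founding member of the family, had 309, 284 and 305 CPM in siBRG1 and 433, 447 and 445 CPM in control. It had the largest fall of the 10 genes, with no overlap between groups (log2FC −0.56, SE 0.0388, adjusted p = 1.96e-13). Genes of like GC had a median of −0.16, and after correction for GC and length the log2FC was −0.49.

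LOXL1 (chromosome 15, 73925989 to 73952137, plus strand), known in mice for its part in elastic fibre renewal, had 65.4, 64.0 and 67.5 CPM in siBRG1 and 32.1, 32.1 and 30.3 CPM in control. It was 2.08-fold higher (log2FC 1.06, SE 0.0569, adjusted p = 7.06e-16), with SDs of 1.78 and 1.06 CPM around means of 65.6 in siBRG1 and 31.5 in control. After correction for GC and length its log2FC was 0.68 (adjusted p = 9.56e-11), and its antisense neighbour LOXL1-AS1 was counted on the other strand.

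The promoters of LOX (chr5:122078260-122078509, minus strand, the farthest upstream of its RefSeq windows) and LOXL1 (chr15:73926212-73926461, plus strand), both on GRCh38.p14, are set side by side because the mRNAs moved in opposite directions. Capitals again mark ACGTG on either strand.
LOX: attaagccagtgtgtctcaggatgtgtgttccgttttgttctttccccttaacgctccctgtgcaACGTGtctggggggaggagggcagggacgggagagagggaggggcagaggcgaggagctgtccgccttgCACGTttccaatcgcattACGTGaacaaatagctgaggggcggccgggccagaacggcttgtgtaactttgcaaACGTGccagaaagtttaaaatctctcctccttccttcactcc
LOXL1: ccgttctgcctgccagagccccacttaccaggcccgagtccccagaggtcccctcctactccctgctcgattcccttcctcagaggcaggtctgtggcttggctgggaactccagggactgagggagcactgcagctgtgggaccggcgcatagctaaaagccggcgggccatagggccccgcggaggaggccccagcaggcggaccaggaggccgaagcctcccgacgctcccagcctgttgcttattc
The LOX window held 4 matches, which start 185, 116, 98 and 42 bases before the RefSeq start, and the LOXL1 window held none. The LOX window reaches into the GENCODE span of LOX, and the matches at 98 and 42 lie inside that span. Of all windows, 0.669% held at least 4, where CACGTG counts as 2 overlapping matches. The LOXL1 window lies inside the GENCODE span of that gene. The other 2 LOX windows, not shown, held 1 ACGTG match each, at the same site. The related core GCGTG was in neither window shown here, while the PLOD1 window held 2, the PLOD2 window 1, 1 SERPINH1 window 2 and the other two LOX windows 1 each. Of all windows 32.2% held it. Whether any of these matches, here or in the windows above, bears on a change of its gene was not tested.

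LOXL2 (chromosome 8, 23297189 to 23425328, minus strand), which crosslinks basement membrane collagen IV among other substrates, had 688, 738 and 669 CPM in siBRG1 and 560, 581 and 585 CPM in control. It was higher in each siBRG1 library, but only by a log2FC of 0.28 (SE 0.0392, adjusted p = 3.41e-07), close to the 0.20 of genes of like GC, and by 0.11 (adjusted p = 0.00734) after correction for GC and length.

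**Figure D2:**
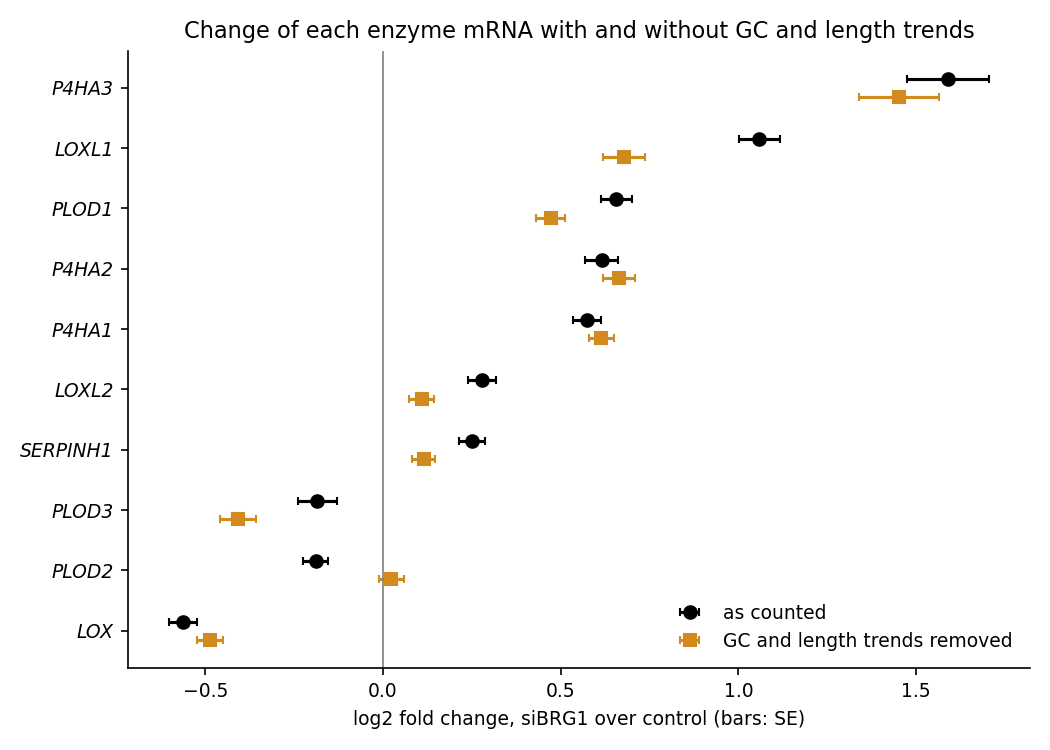
Log2 fold change of siBRG1 over control (horizontal axis, bars are SE) of each gene, as counted (black circles) and after correction for each library's GC and length trends (orange squares). P4HA3, LOXL1, PLOD1, P4HA2 and P4HA1 stay right of 0 and LOX left of it under both, while PLOD2 moves from −0.19 to 0.02.

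**Figure D3:**
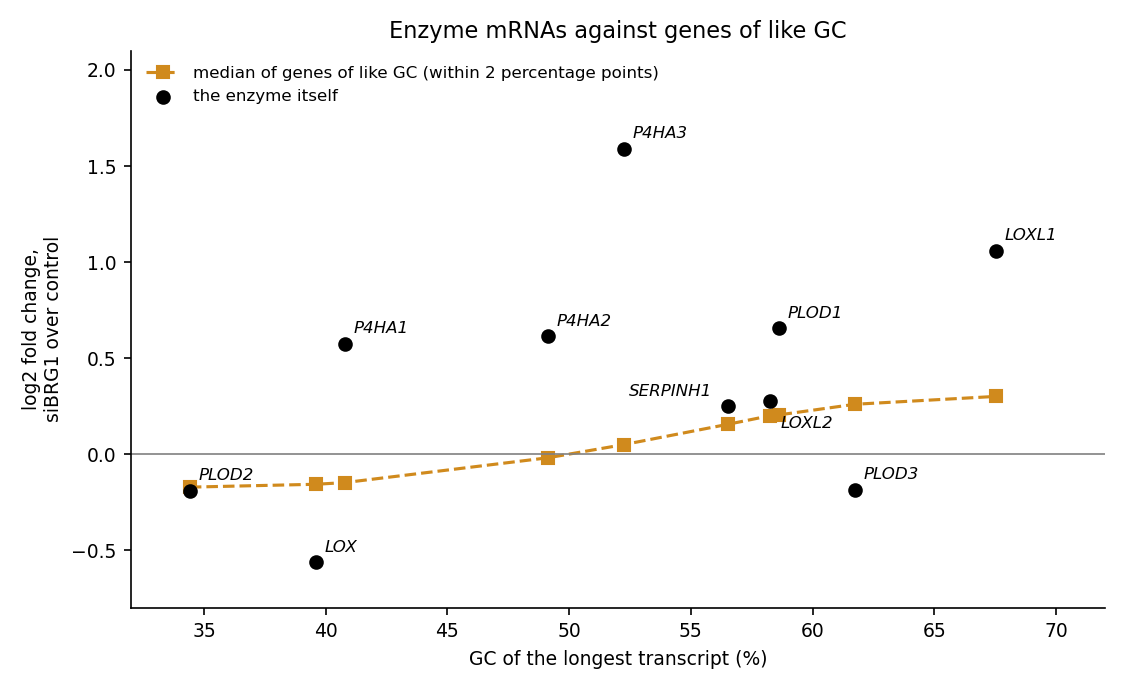
Log2 fold change of each gene (black, vertical axis) against the GC of its longest transcript (horizontal axis, %), with the median of all tested genes within 2 percentage points of that GC (orange squares, dashed line). PLOD2, SERPINH1 and LOXL2 lie within 0.1 of their orange square. P4HA3, LOXL1, P4HA1, P4HA2 and PLOD1 lie farther above theirs, and PLOD3 and LOX farther below.

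Levels of different genes were compared per kilobase of exon. LOXL2 was the most abundant of the 10 in both groups, at 122 ± 6.22 CPM per kb in siBRG1 and 101 ± 2.34 in control, and P4HA3 the least, at 3.66 ± 0.0599 in siBRG1 and 1.22 ± 0.0759 in control. In siBRG1 LOXL2 was followed by SERPINH1 (93.6), P4HA1 (82.9), LOX (53.9), PLOD2 (52.8), PLOD1 (35.9), P4HA2 (19.3), LOXL1 (18.0) and PLOD3 (13.7). LOX and PLOD2, and P4HA2 and LOXL1, overlapped between libraries in that order. In control the order was LOXL2, LOX (79.6), SERPINH1 (78.6), PLOD2 (60.2), P4HA1 (55.6), PLOD1 (22.8), PLOD3 (15.6), P4HA2 (12.6), LOXL1 (8.66) and P4HA3, and only LOX and SERPINH1 overlapped. So LOX lay below P4HA1 in siBRG1 and above it in control. These orders rest in part on the length used: per kb of the longest transcript, LOX (58.6 in siBRG1 and 86.6 in control) lay below SERPINH1 (167 in siBRG1 and 140 in control) in both groups without overlap, P4HA2 stood at 48.9 ± 2.75 in siBRG1 and 31.9 ± 1.26 in control, and PLOD2 came next after LOXL2 and SERPINH1 in both groups.

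The make-up of each family was taken as shares of CPM per kb. LOX made up 27.8 ± 1.69% of the LOX, LOXL1 and LOXL2 total in siBRG1 and 42.1 ± 0.0819% in control (SD, n = 3 each). LOXL1 made up 9.29 ± 0.423% in siBRG1 and 4.58 ± 0.209% in control, and LOXL2 62.9 ± 2.07% in siBRG1 and 53.3 ± 0.291% in control. PLOD1 made up 35.0 ± 0.722% of the lysyl hydroxylases in siBRG1 and 23.1 ± 0.367% in control, and PLOD2 51.6 ± 1.35% in siBRG1 and 61.1 ± 0.988% in control.

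Within the alpha subunits P4HA1 held 78.3 ± 0.436% in siBRG1 and 80.1 ± 0.0923% in control, and P4HA3 held 3.46 ± 0.0731% in siBRG1 and 1.76 ± 0.142% in control. The share of P4HA2 was 18.2 ± 0.470% in siBRG1 and 18.1 ± 0.234% in control, with libraries that overlapped (exact two-sided permutation p = 0.9). With unstranded counts the P4HA2 share was higher by 1.05 percentage points in siBRG1 and its groups did not overlap (exact two-sided permutation p = 0.1). For each of the other 8 shares the groups were apart, with an exact two-sided permutation p of 0.1, the smallest that 3 libraries against 3 allow. After correction for GC and length the difference was 7.61 percentage points in place of 11.9 for PLOD1, −2.55 in place of −9.49 for PLOD2, −5.06 in place of −2.45 for PLOD3 and −10.2 in place of −14.3 for LOX.

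**Figure D4:**
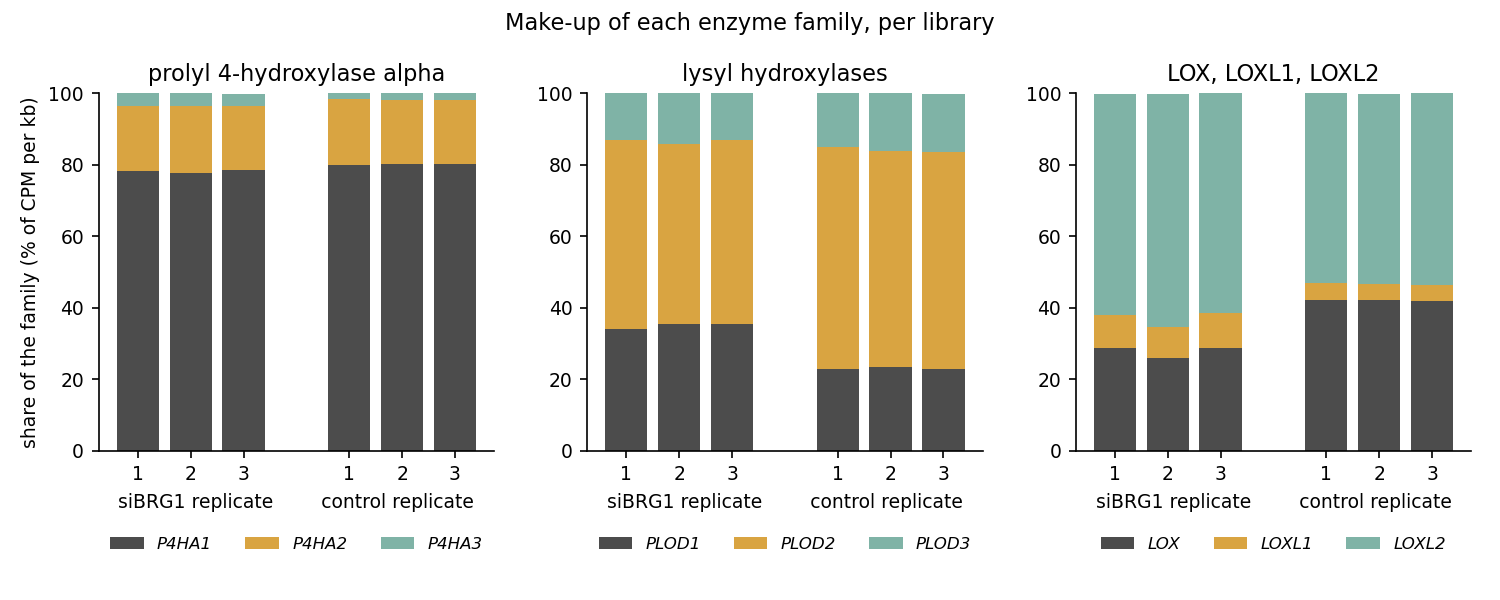
Share of each gene in its family (vertical axis, % of the family's CPM per kb) in each library, siBRG1 replicates on the left and control replicates on the right of each panel. LOX takes 27.8% on average in siBRG1 against 42.1% in control, and PLOD1 35.0% against 23.1%.

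The partners of these enzymes in the endoplasmic reticulum rose more often than they fell. Of 15 other genes of procollagen hydroxylation, glycosylation and folding, 11 rose and 2 fell (median log2FC 0.40). Among all genes tested 36.1% rose and 36.5% fell. The counts and medians of this and the following lists are not corrected for GC or length. P4HB and FKBP10 of this list have 58.4% and 59.2% GC, and genes of like GC to PLOD1, at 58.6%, had a median log2FC of 0.20. The part of GC in the list values was not tested. P4HB, the beta subunit that the alpha subunits need to be soluble, was singled out after its value was seen and averaged 1136 ± 64.7 CPM in siBRG1 and 862 ± 32.1 CPM in control (log2FC 0.40, SE 0.0413, adjusted p = 1.15e-09). FKBP10, the peptidyl-prolyl isomerase FKBP65 that works with PLOD2, stood at 244 ± 6.79 CPM in siBRG1 and 128 ± 3.39 CPM in control (log2FC 0.93, adjusted p = 3.81e-18). FKBP7, a related isomerase gene of low level, rose by a log2FC of 1.11.

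The prolyl 3-hydroxylase complex, which modifies single prolines of fibrillar collagens, has P3H1, CRTAP and the isomerase PPIB as its parts. P3H1 stood at 86.9 ± 2.79 CPM in siBRG1 and 51.8 ± 1.01 CPM in control (log2FC 0.75, adjusted p = 9.42e-14), and CRTAP, singled out after its value was seen, rose by 0.44. PPIB fell, at 331 ± 10.0 CPM in siBRG1 and 409 ± 1.94 CPM in control (log2FC −0.30, adjusted p = 2.20e-08), but with unstranded counts it was higher (log2FC 0.13). CREB3L1, a transcription factor of secretory genes, fell by 0.33 on the log2 scale. COLGALT1, the galactosyltransferase that acts on hydroxylysine, did not pass at 386 ± 5.06 CPM in siBRG1 and 374 ± 10.5 CPM in control, was lower after correction for GC and length (log2FC −0.14) and higher with unstranded counts (log2FC 0.10). COLGALT2, a related gene at 0.799 ± 0.335 CPM in siBRG1 and 0.598 ± 0.0553 CPM in control, did not pass either.

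Of 12 genes of procollagen export from the endoplasmic reticulum 5 rose and 5 fell, against 36.1% and 36.5% of all genes tested. The GTPases that build the COPII coat fell, SAR1B by 0.77 and SAR1A by 0.64 on the log2 scale, as did TFG by 0.49. The coat gene SEC23A, the exchange factor gene PREB and the cargo receptor gene MIA2 had log2FCs of 0.35, 0.36 and 0.35. MIA3, also a cargo receptor gene, fell, with means of 74.2 CPM in siBRG1 and 94.6 CPM in control (log2FC −0.35, adjusted p = 1.54e-07). Of the other coat genes, SEC31A fell (log2FC −0.12), SEC13 rose (log2FC 0.10) and SEC24D did not pass. MIA3 and these other coat genes were singled out after their values were seen. Of 8 tested genes of procollagen processing 5 rose and 1 fell. BMP1, the protease that cuts the C-propeptides of fibrillar procollagens and also releases active LOX from its proenzyme, averaged 93.5 ± 4.25 CPM in siBRG1 and 49.2 ± 1.67 CPM in control (log2FC 0.93, adjusted p = 1.39e-15). PCOLCE, which enhances that cleavage, and ADAMTS2, the N-propeptidase, rose by log2FCs of 1.45 and 0.86. The BMP1 relative TLL1 fell (log2FC −0.44, adjusted p = 0.0141), a call lost without siBRG1 replicate 1 (−0.34), siBRG1 replicate 3 (−0.31) or control replicate 3 (−0.39), and after correction for GC and length (−0.32).

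Of 11 tested genes for other lysyl oxidases, copper supply and matrix partners 6 rose and 2 fell (median log2FC 0.22). Among all genes tested, 36.1% were higher and 36.5% lower. The other lysyl oxidases were scarce: LOXL4 stood at 3.88 ± 1.58 CPM in siBRG1 and 1.51 ± 0.316 CPM in control (log2FC 1.36, adjusted p = 2.17e-05, or 0.89 with unstranded counts), and LOXL3 did not pass at 3.24 ± 1.27 CPM in siBRG1 and 2.95 ± 0.0873 CPM in control. EFEMP2, or fibulin-4, which binds LOX and is needed for crosslinking of elastin, was singled out after its value was seen and rose by a log2FC of 0.98 (adjusted p = 1.37e-13). FBLN1 and POSTN, matrix protein genes, rose by 1.81 and 1.00, while FN1, fibronectin, and SLC31A1, the copper importer, fell by 0.43 and 0.16 on the log2 scale. The other copper supply genes were singled out after their values were seen. ATP7A and ATP7B rose by log2FCs of 0.50 and 0.22 (adjusted p = 4.36e-07 and 0.0389), and ATOX1 did not pass. ELN, the elastin gene, had 2 counts in all in siBRG1 and 1 in control and was not tested.

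The collagen chains are the substrate of these enzymes. Of 21 tested collagen genes 13 rose and 6 fell (median log2FC 0.46), against 36.1% and 36.5% of all genes tested. COL3A1, a fibrillar chain, averaged 1616 ± 98.3 CPM in siBRG1 and 294 ± 33.7 CPM in control, COL6A2 331 ± 10.8 CPM in siBRG1 and 97.7 ± 5.60 CPM in control, and COL5A3 7.08 ± 0.427 CPM in siBRG1 and 1.96 ± 0.275 CPM in control. COL16A1, COL7A1 and COL27A1 fell by 1.29, 1.27 and 0.97 on the log2 scale. Summed over the list, collagen mRNA came to 8741, 8708 and 8202 CPM in siBRG1 and 5210, 5414 and 5194 CPM in control. The 10 enzyme mRNAs summed to 2731, 2827 and 2717 CPM in siBRG1 and 2479, 2521 and 2490 CPM in control. These sums, and the ratio below, use CPM not divided by length, so longer mRNAs weigh more in them.

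The log2 ratio of enzyme to collagen mRNA was lower in siBRG1, at −1.63 ± 0.0428, than in control, at −1.08 ± 0.0216 (SD, n = 3 each), a ratio 0.681 of that in control (p = 0.1 in an exact permutation test, two-sided, the smallest that 3 against 3 can give). Without COL3A1 and COL1A1 the difference was −0.40 in place of −0.55. Of 6 stromal fibroblast markers 5 rose and 1 fell (median log2FC 1.48), against 36.1% and 36.5% of all genes tested. Their summed level ran from 999 to 1052 CPM in siBRG1 and from 497 to 524 CPM in control. LUM rose by 2.24, DCN by 2.15 and MME by 1.87 on the log2 scale, and THY1 fell by 0.17, a call lost with unstranded counts. Their part in the changes of the enzymes was not tested. Epithelial markers, of which 3 of 6 rose and 2 fell, summed to 3476 to 3733 CPM in siBRG1 and 3935 to 4020 CPM in control, and CDH1 rose by 0.93 while KRT7 fell by 2.40 and KRT19 by 0.54 on the log2 scale. Endothelial markers (1 of 3 tested rose and 1 fell) summed to 15.1 to 21.3 CPM in siBRG1 and 17.4 to 20.1 CPM in control, and immune markers (1 of 2 tested rose) to 9.83 to 10.5 CPM in siBRG1 and 4.10 to 5.50 CPM in control. VWF, an endothelial marker, had a log2FC of −0.69, and CD14, an immune marker, one of 1.19. CD3E had 0 counts in all 6 libraries, and PECAM1 had 2 counts in each group.

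**Figure D5:**
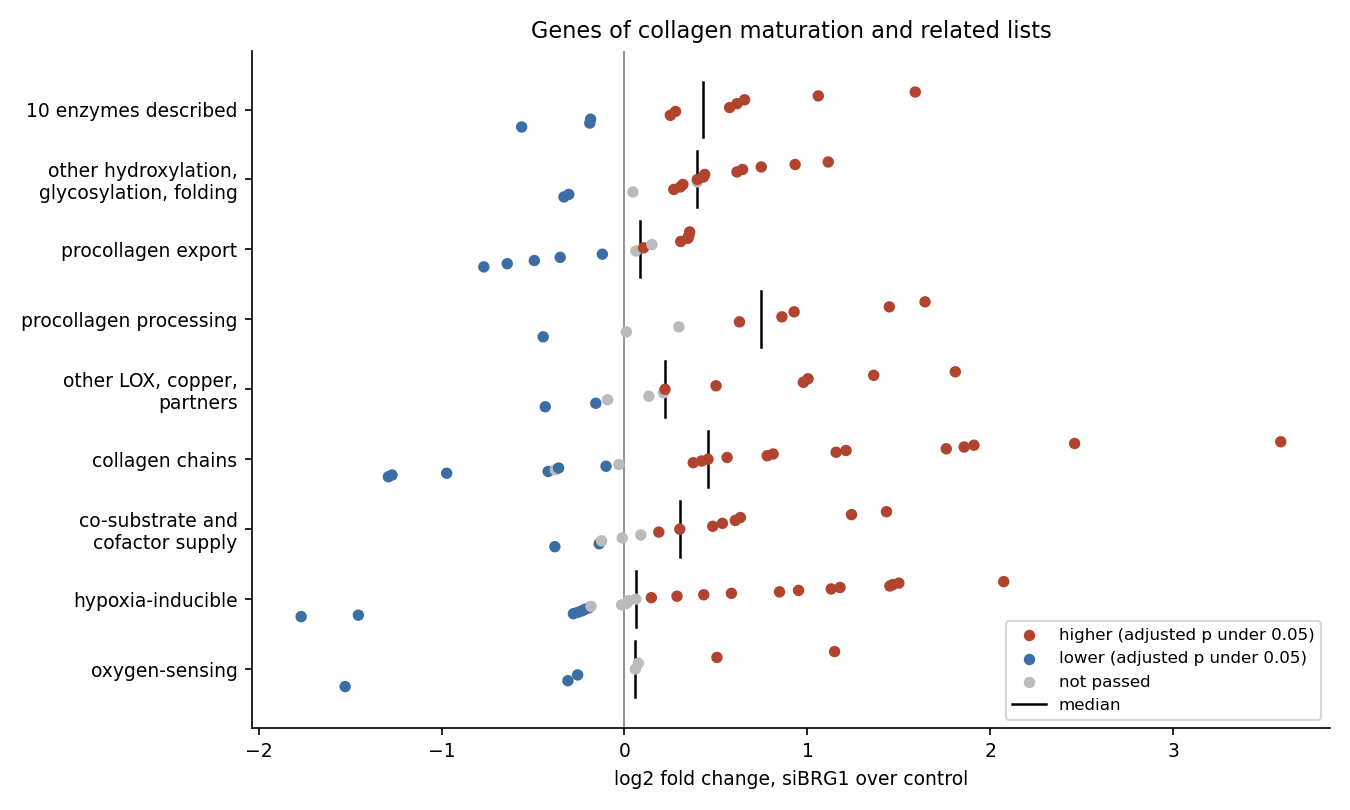
Log2 fold change of siBRG1 over control (horizontal axis) of each tested gene of the lists named on the left, red where higher, blue where lower and grey where not passed, with the list's median as a black line. Medians lie at 0.43 for the 10 enzymes, 0.40 for the other folding genes and 0.46 for the collagen chains, and at 0.06 for the hypoxia-inducible genes. These values are not corrected for GC or length.

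Several of the 10 genes, among them P4HA1, P4HA2, PLOD2 and LOX, are textbook targets of hypoxia-inducible factors, so other such targets were set beside them. Of 25 hypoxia-inducible genes outside the 10, 12 rose and 7 fell (median log2FC 0.06), against 36.1% and 36.5% of all genes tested. CA9, a carbonic anhydrase, and the transcription factor BHLHE40 rose by log2FCs of 2.07 and 1.47, SLC2A3, a glucose transporter, stood at 347 ± 31.6 CPM in siBRG1 and 123 ± 2.02 CPM in control, and ADM, adrenomedullin, HK2, a hexokinase, and VEGFA fell by 1.77, 1.45 and 0.28. Of 7 oxygen-sensing factors 2 rose and 3 fell: EPAS1, which encodes HIF-2 alpha, averaged 209 ± 12.9 CPM in siBRG1 and 94.1 ± 1.57 CPM in control (log2FC 1.15, adjusted p = 3.63e-19), and its partner ARNT rose by 0.51. EGLN2, a HIF prolyl hydroxylase, fell by 1.53, and HIF1AN and ARNT2 by 0.31 and 0.26. HIF1A did not pass, at 357 ± 4.50 CPM in siBRG1 and 342 ± 3.80 CPM in control. The call of HIF1AN was lost after correction for GC and length (log2FC −0.09, adjusted p = 0.0618).

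The authors' deposited table of their own comparison lists a log2 fold change of 1.56 (SE 0.120) for P4HA3, 1.03 (SE 0.0578) for LOXL1 and −0.59 (SE 0.0427) for LOX. For PLOD2 and PLOD3, the authors' deposited table gives −0.22 (SE 0.0312) and −0.21 (SE 0.0583).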

How the data were processed

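Per the labels' protocols, RNA was extracted 72 h after transfection and 500 ng of it went into each strand-specific mRNA library. Build GRCh38.p12 and the tools STAR, DESeq2, Trim Galore, cutadapt and FastQC are listed, with no versions, per the submitters' processing notes. The authors deposited raw counts per gene for each library. Their separate table of the whole series gives, per the file headers, a log2 fold change with its SE, p-values and a mean signal. Its signal and score columns, deposited by the authors, were not used. No source used here gives the annotation release. Of 58336 identifiers 56888 matched GENCODE 29 with their version and 58216 in all, SERPINH1 without its version.

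Counts in the fourth column (sense) were used. Reads assigned to no gene were left out: no feature 3.97% in siBRG1 and 13.3% in control, several places 20.3% and 9.81%, ambiguous 3.11% and 4.16%, unmapped 1.84% and 1.64% of all reads. Libraries of 1 group differed beyond counting noise, with chi-square values of 2.72 to 4.83 per degree of freedom. edgeR 4.0.16 in R 4.3.3 was run with TMM, filterByExpr and robust quasi-likelihood fits on the group, two-sided, with Benjamini-Hochberg adjustment over 15830 genes, and was tested on simulated data. SE is the absolute log2 fold change over the square root of F. Lengths are unions of exons, GC is that of the longest transcript, and GC and length trends were removed as splines with 5 degrees of freedom per library. Permutation tests used SciPy 1.17.1. Promoter sequences are RefSeq's (GRCh38.p14) and matched 8 of the 10 genes; none is shown for P4HA3 and LOXL2. Before TMM scaling, 3 counts stood for 0.236 CPM in siBRG1 and 0.0690 CPM in control on average. That floor reflects counting only, not the spread between libraries.

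The 10 genes, the gene lists, the tests and the alternatives were chosen with earlier results of these data known. Named genes were the 10, SMARCA4, and of each list up to 3 that rose and up to 3 that fell with a mean of at least 50 counts. Genes outside that rule are said to be singled out; EPCAM, COLGALT1, COLGALT2, LOXL3, HIF1A, SMARCA2, ELN, CD3E and PECAM1 were likewise chosen after their values were seen. Some items are not reported here. Alternatives were DESeq2 1.42.0 size factors and its Wald test, no or a stricter count filter (50 counts in 3 libraries), unstranded counts, protein-coding genes alone, GC and length, thinned control libraries, a replicate block, and each library left out.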

Additional observations from a re-analysis of the deposited data

How the results depend on the processing

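Over 16 alternatives, P4HA1, P4HA2, P4HA3, PLOD1, PLOD3, SERPINH1, LOX, LOXL1 and LOXL2 kept their direction and their call. PLOD2 did not: its log2FC after correction for GC and length was 0.023, and again 0.023 together with the replicate block. Leaving out each library in turn gave PLOD3 −0.26 to −0.14 (adjusted p = 0.0479 without siBRG1 replicate 1). The GC and length correction gave 0.68 for LOXL1, 0.11 for SERPINH1, 0.11 for LOXL2, 0.47 for PLOD1 and −0.41 for PLOD3. Unstranded counts moved the alpha subunits and LOX more than that correction did, to 0.65 for P4HA1, 0.78 for P4HA2, 1.37 for P4HA3 and −0.48 for LOX. After that correction 9 of the 10 genes were called, and under the other alternatives 10. Of all genes, between 9697 and 12541 were called. The share difference of P4HA2 was 1.05 percentage points with unstranded counts, turned to −0.0433 percentage points per longest transcript, an alternative chosen after seeing the data, and ran from −0.170 to 0.275 with libraries left out. Of the endothelial markers 1 in place of 2 was called by DESeq2's test and with the stricter filter, and 1 to 3 with libraries left out. SMARCA2, the paralogue of SMARCA4, did not pass (log2FC 0.04), so 1 of these 2 genes was called, and 2 were after the GC and length correction, 2 with the block besides, and 1 to 2 with libraries left out. SMARCA2 was −0.0051 with no count filter, −0.0025 among protein-coding genes and −0.040 without siBRG1 replicate 2. After the GC and length correction, without and with the block, FTL was 0.14 and 0.14, KRT8 −0.026 and −0.027 (which also missed the threshold under DESeq2 size factors, with no count filter, among protein-coding genes and without siBRG1 replicate 3 or any 1 control library), and COLGALT1 −0.14 and −0.14. PPIB was 0.13 with unstranded counts. The cause of these changes was not tested. Same-numbered libraries had deviations from their group means that hardly correlated (−0.0126 to 0.0220). With 3 libraries per group, such values cannot show whether the replicate numbers pair cultures. With the replicate block alone 10 of the 10 genes were called. Depth limited P4HA3 most, with 576 counts in siBRG1 and 623 in control.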

Other observations

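Supply genes of the hydroxylases were not part of the account above. Of 13 tested genes for 2-oxoglutarate, iron and ascorbate handling 8 rose and 2 fell (median log2FC 0.30). Among all genes tested, 36.1% were higher and 36.5% lower. IDH1 and IDH2, which make 2-oxoglutarate, both rose: IDH1 averaged 167 ± 6.60 CPM in siBRG1 and 70.5 ± 5.33 CPM in control (log2FC 1.24), and IDH2 69.7 ± 8.65 CPM in siBRG1 and 25.8 ± 2.06 CPM in control (log2FC 1.43; SD, n = 3 each). The ferritin chain genes parted, with FTH1 higher (log2FC 0.63) and FTL lower (log2FC −0.14, but 0.14 after correction for GC and length; the call was also lost with unstranded counts, at −0.08, and without siBRG1 replicate 1 or control replicate 2, at −0.11 each), and the lactate exporter gene SLC16A3 fell by 0.38 on the log2 scale.

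TGF-beta raises LOX and PLOD2 in many cells. Of 13 genes inducible by TGF-beta outside the 10, 6 rose and 6 fell (median log2FC −0.18), against 36.1% and 36.5% of all genes tested. SKIL and TGFB2 fell by 1.70 and 1.68 on the log2 scale, and LTBP2, BHLHE40 and TGFBI rose by 1.80, 1.47 and 0.26.

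By the distance of centred log2 CPM over the 6 libraries among 12857 other protein-coding genes tested, NOP53, CLU and IFITM2 lay nearest to P4HA3, at distances of 0.0707, 0.0941 and 0.0942. PPP1R12A, DNAJC11 and BCCIP lay nearest to LOX, at 0.0202, 0.0448 and 0.0474. These values are a description of 6 libraries in 2 groups.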
